A study of Mus musculus with 17 samples.

Results

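The 8 genes described here encode the constant regions of the immunoglobulin heavy chain, Ighm, Ighd, Ighg3, Ighg1, Ighg2b, Ighg2c, Ighe and Igha. They were taken by gene name from a table of 55536 genes, and all 8 were among the 15352 genes that passed a filter on low counts and were tested. RNA was sequenced from B cells sorted from mouse spleen. Knock-in mice (p52ki) gave 3 libraries of naive, 3 of activated and 2 of germinal centre (GC) B cells, and wild-type mice (WT) gave 3 libraries of each population. The knock-in concerns p52, the NF-kB subunit made from Nfkb2, and by its title the study asks about p52 and ETS1 acting together when GCs form. The labels give the genotype as p52Ki or WT and no further detail of the allele, and the age of the mice, any immunization and the sorting gates are not stated there.

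A naive B cell makes IgM and IgD from 1 primary transcript, which is spliced to either the Ighm or the Ighd exons. After activation B cells can undergo class switch recombination, which deletes Ighm, Ighd and any constant genes up to the chosen one and so joins the same variable region to IgG, IgE or IgA. Each downstream gene has its own promoter, and its germline (sterile) transcript is made before recombination. In mice IL-4 is known to direct switching to IgG1 and IgE, interferon-gamma to IgG2a or IgG2c, and TGF-beta to IgG2b and IgA. Counts per gene do not separate germline transcripts from those of switched cells, nor membrane from secreted forms, so the values below are levels of RNA from each constant gene and not shares of switched cells.

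All 8 genes lie on the minus strand of chromosome 12 in GRCm38. In the order of transcription Ighm comes first (113418558 to 113422730), followed by Ighd (113406604 to 113416324), Ighg3 (113356224 to 113361232), Ighg1 (113325240 to 113330523), Ighg2b (113302965 to 113307933), Ighg2c (113285325 to 113288932), Ighe (113269260 to 113273248) and Igha (113254830 to 113260236). Each has 2 annotated transcripts, and no other annotated gene overlaps any of them. The 4 IgG genes are close relatives that differ most visibly in the hinge, the flexible stretch between the antigen-binding arms and the stem, whose cysteines link the heavy chains. Their hinge exons (exon 2 of each gene) are shown because they differ among the 4 subclasses in length. Capitals mark the cysteine codons in frame, and the sequences are the reference of GRCm38.

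Ighg3 (chr12:113360529-113360576): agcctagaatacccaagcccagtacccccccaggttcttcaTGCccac

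Ighg1 (chr12:113329844-113329882): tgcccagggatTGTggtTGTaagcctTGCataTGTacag

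Ighg2b (chr12:113307261-113307326): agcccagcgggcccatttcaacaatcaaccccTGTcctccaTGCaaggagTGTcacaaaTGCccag

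Ighg2c (chr12:113288263-113288325): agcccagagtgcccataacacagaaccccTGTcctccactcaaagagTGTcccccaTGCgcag

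The Ighg1 hinge exon is the shortest, with 39 bases and 4 cysteine codons, and that of Ighg2b the longest, with 66 bases and also 4. Ighg2c has 63 bases with 3 cysteine codons and Ighg3 has 48 bases with 1. Elsewhere the genes share exact runs. Ighg2b and Ighg3 share 88 bases in exon 5, and Ighg2b and Ighg2c share 78 bases in exon 3, which are shown because Ighg2b and Ighg2c were both at their highest in the same library, activated p52ki replicate 3.

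Ighg2b and Ighg2c, shared run (chr12:113306869-113306946 and chr12:113287869-113287946): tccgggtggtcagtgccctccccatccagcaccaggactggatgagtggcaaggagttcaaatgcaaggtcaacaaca

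No stretch of 100 bases is shared by any pair of the 8 genes, and reads were longer than that. Of all 50-base windows in its exons, a member shared 0.393% (Ighg1), 1.58% (Ighg3), 4.15% (Ighg2b) or 5.49% (Ighg2c) with another member, and the remaining 4 genes shared none. How reads with several matches were treated is not stated, and the error this could give in the levels of the 4 IgG genes was not tested.

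Libraries held 4067281 to 10036347 counts. The naive and GC labels were checked against marker genes, and no marker list was made for the activated stage. The summed level of 7 GC markers was 921 to 1635 CPM (counts per library total of 1e6) in p52ki GC libraries and 1672 to 2380 in WT GC libraries, against at most 198 in any naive or activated library. Naive follicular markers (6 genes, Ighd among them) summed to 7731 to 8982 CPM in naive and 2757 to 3666 in activated libraries. The sum of 8 plasma cell markers was 402 to 476 CPM in naive and 1832 to 7983 in activated libraries. For 9 marginal zone and B-1 cell markers it was 1312 to 1688 and 2399 to 3083 CPM. Their part in the changes between these stages was not tested. The 3 GC libraries numbered p52ki 2, p52ki 5 and WT 3 had 11390, 13044 and 11232 detected genes, while WT GC libraries 1 and 4 and all naive and activated libraries had 16745 to 19672. Results in GC cells are therefore also given without WT GC replicates 1 and 4 where that changes a genotype call. Such a fit leaves 1 WT GC library, and one without a p52ki GC library leaves 1 of p52ki; the lone library is then assumed to vary like the other groups. In bulk RNA, fewer cells that use a constant gene and less RNA per cell cannot be told apart.

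More of the 8 genes passed the test between stages than between genotypes. The threshold was 0.05 for a p from edgeR's quasi-likelihood test that was adjusted over all genes tested. Activated p52ki cells differed from naive ones in 4 of the 8, against 0.117% of all genes tested, with 3 higher (0.0847% of all genes) and 1 lower (0.0326%). Activated WT cells differed from naive ones in 6 of the 8, against 0.319% of all genes, with 5 higher (0.254%) and 1 lower (0.0651%). From the activated to the GC stage 25.6% of all genes changed in p52ki cells, 6.34% higher and 19.3% lower, and of the 8 genes 2 rose and 2 fell. The same step changed 13.6% of all genes in WT cells, 5.8% higher and 7.75% lower, and of the 8 genes none rose and 3 fell. The difference of the stage changes between genotypes passed for none of the 8, against 0.0% of all genes for the activated and 5.95% for the GC step. Between genotypes, none of the 8 was called in naive cells, against 0.0% of all genes. DESeq2 called 5 genes there, none of them a member. In activated cells none of the 8 was called, against 0.013% of all genes. At an unadjusted p under 0.05 there were 80 genes in naive and 134 in activated cells, fewer than chance alone would give among 15352. The main fit took 1 spread per gene over all groups and was conservative in these comparisons, so a lack of calls is weak evidence of no difference. A fit of the naive libraries alone had 737 of 13294 genes under 0.05 and called 13, Ighg1 among them. In GC cells 2 of the 8, Igha and Ighd, were higher in p52ki, against 16.0% of all genes called, 3.75% higher and 12.2% lower. Comparisons that share a group share its libraries, so their values are not independent of each other.

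Same-numbered naive and activated libraries of a genotype deviated together from their group means, and with the replicate number as a block fewer genes passed. In p52ki cells 1 of the 4 calls remained (Ighg1), and in WT cells 3 of the 6 (Ighg1, Ighg2b and Ighg3). Over all 15352 genes the block called 2 in place of 18 in p52ki and 17 in place of 49 in WT cells. Of the p52ki calls none was left when naive replicate 2 or 3 was omitted, where 1 gene was called over all genes each time. The count was 1 without naive replicate 5 (3 over all genes). It was 2 without activated replicate 2 or 3 (3 and 4 over all genes). The count in WT cells was 3 without WT naive replicate 1, 3 or 4 (11 to 14 over all genes). Without any 1 WT activated library it was 5 to 7 (20 to 52 over all genes).

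**Figure D1:**
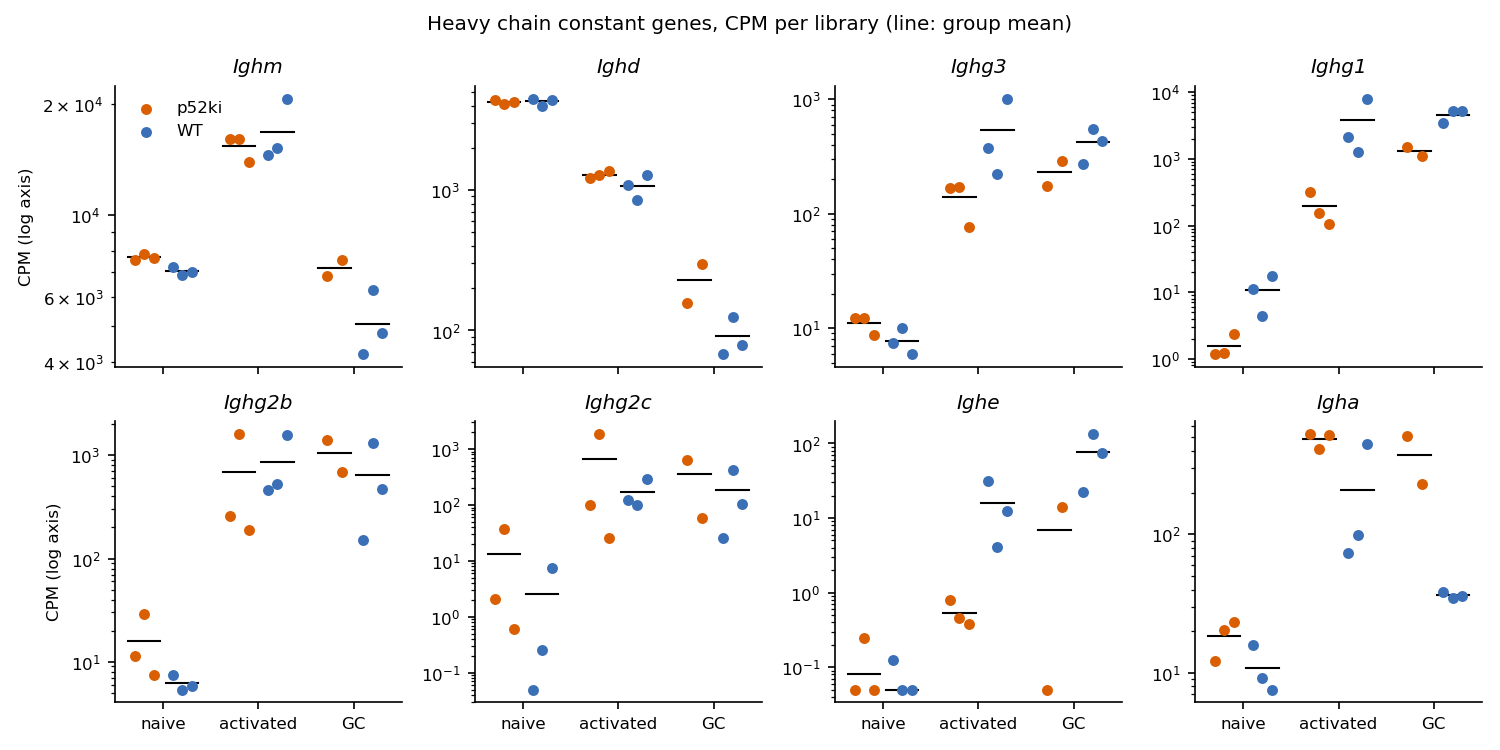
Level of each heavy chain constant gene in CPM (log axis) in every library, with p52ki (orange) left of WT (blue) at each stage and a line at the group mean; libraries at 0 are drawn at 0.05. Ighg1 lay lower in p52ki than in WT libraries at all 3 stages, and Igha was at 232 and 510.4 CPM in p52ki GC libraries against 34.5 to 38.4 CPM in WT GC libraries.

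Ighm, the constant gene of IgM, had the highest level of the 8 per exon length in every library. Its levels in p52ki cells were 7559, 7824 and 7647 CPM in naive, 16086, 16109.6 and 13919 in activated and 6825 and 7533 in GC libraries. In WT cells they were 7234, 6896 and 7019 CPM in naive, 14589.5, 15239 and 20657 in activated and 4196, 6251 and 4797 in GC libraries. At both earlier stages Ighm was close between genotypes (log2 difference 0.11, SE 0.193, in naive and -0.21, SE 0.193, in activated cells). Activated libraries lay above naive ones in both genotypes. The log2 change was 1.02 (SE 0.195, adjusted p = 0.0584) in p52ki and 1.34 (SE 0.197, adjusted p = 0.00543) in WT cells, so that only the WT change passed, and with the replicate block it did not either (adjusted p = 0.0573). The difference between these changes was -0.32 (SE 0.273, adjusted p = 1).

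From activated to GC cells Ighm fell in both genotypes, by 1.02 on the log2 scale in p52ki (SE 0.223, adjusted p = 0.00532) and by 1.75 in WT cells (SE 0.199, adjusted p = 5.75e-05). The fall in p52ki was not called with limma voom with quality weights. GC libraries of p52ki lay above those of WT without overlap. The difference of 0.52 (SE 0.214, adjusted p = 0.103) did not pass the test, and was 0.80 (adjusted p = 0.0205) without WT GC replicate 3. Over the 6 groups, p52ki GC and WT naive libraries overlapped, as did the activated libraries of the 2 genotypes, and WT GC libraries were the lowest.

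Ighd, the constant gene of IgD, was lower at each later stage. In p52ki cells it was at 4352, 4068 and 4225 CPM in naive, 1211, 1278 and 1368 in activated and 158 and 296 in GC libraries. In WT cells it was at 4467, 3968 and 4401 CPM in naive, 1086, 847 and 1286 in activated and 67.7, 126 and 78.6 in GC libraries. The stages did not overlap in either genotype. In activated against naive cells the log2 change was -1.70 (SE 0.280, adjusted p = 0.0251) in p52ki and -1.90 (SE 0.282, adjusted p = 0.00592) in WT, and neither passed with the replicate block (adjusted p = 0.161 and 0.0605). In GC against activated cells it was -2.40 (SE 0.336, adjusted p = 0.000312) in p52ki and -3.60 (SE 0.303, adjusted p = 1.02e-05) in WT.

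The genotypes overlapped in Ighd in naive and activated cells, whereas both p52ki GC libraries lay above the 3 WT GC libraries. There Ighd was higher in p52ki cells (mean 227 ± 97.8 CPM, SD, n = 2, against 90.6 ± 30.8, n = 3; log2 1.37, SE 0.303, adjusted p = 0.00915). The median of all genes in this comparison was -0.32. With limma voom with quality weights, and in a fit of the GC libraries alone, Ighd was not called. The call was lost without p52ki GC replicate 5 (log2 0.74, adjusted p = 0.0963) and without WT GC replicates 1 and 4 together (0.93, adjusted p = 0.102). The summed level of 6 naive follicular B cell markers, a list that holds Ighd itself, was 1486 and 1494 CPM in p52ki GC and 602 to 735 CPM in WT GC libraries, with all 6 detected in both; its part in the result was not tested.

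Scaled by exon length, the ratio of Ighm to Ighd separated the stages. In naive libraries it was 1.75, 1.94 and 1.82 in p52ki and 1.63, 1.75 and 1.61 in WT cells. In activated libraries it was 13.4, 12.7 and 10.3 in p52ki and 13.5, 18.1 and 16.2 in WT cells. The ratio in GC libraries reached 43.6 and 25.6 in p52ki and 62.5, 50.1 and 61.5 in WT cells, again without overlap between genotypes. Zfp318, a nuclear protein that mouse B cells need for the long transcript that includes Ighd, was at 162, 145 and 181 CPM in p52ki naive and 142, 202 and 166 in WT naive libraries. GC libraries held it at 18.4 and 5.43 CPM in p52ki and 6.56, 1.015 and 8.15 in WT. It fell in GC against activated cells in both genotypes (log2 -2.35, SE 0.618, adjusted p = 0.0138, in p52ki and -3.37, SE 0.551, adjusted p = 0.000849, in WT), and had a log2 difference of 1.10 (SE 0.580, adjusted p = 0.205) between genotypes in GC cells, which was 3.53 (adjusted p = 0.00530) without WT GC replicates 1 and 4.

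**Figure D2:**
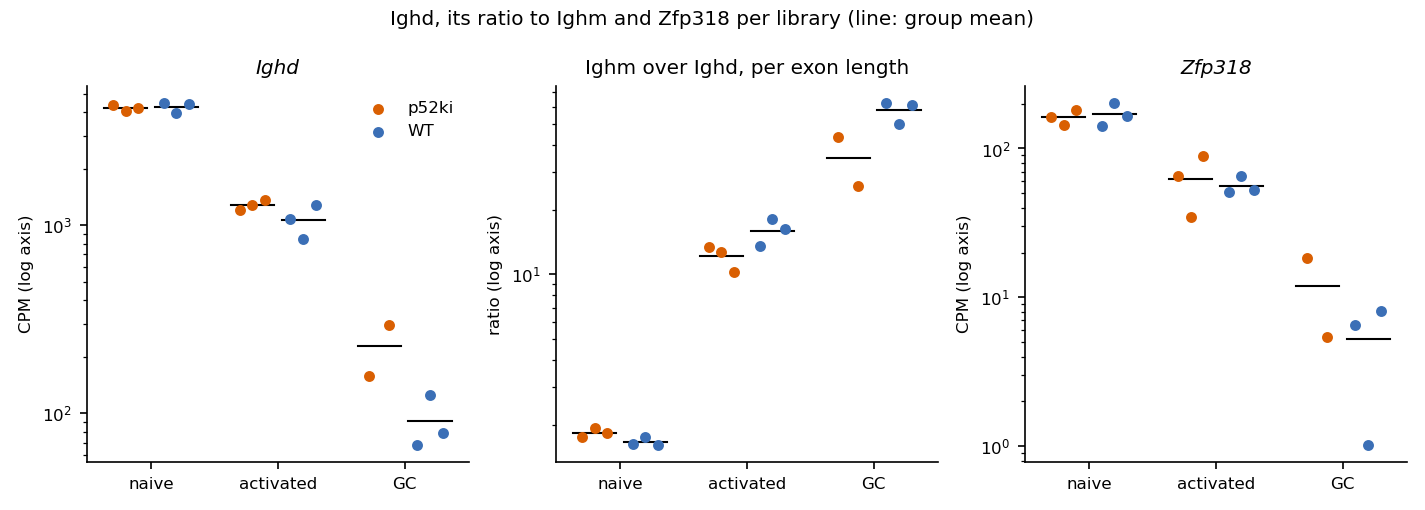
Ighd in CPM, the ratio of Ighm to Ighd per exon length and Zfp318 in CPM, each on a log axis, for every library with p52ki (orange) left of WT (blue) and a line at the group mean. The ratio was 1.61 to 1.94 in naive libraries of both genotypes, and 25.6 and 43.6 in p52ki GC against 50.1 to 62.5 in WT GC libraries.

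Ighg1, the constant gene of IgG1, was the downstream gene with the highest level per exon length in every WT activated and WT GC library. In p52ki cells it was at 1.16, 1.22 and 2.34 CPM in naive, 323, 154 and 104 in activated and 1499.8 and 1099.6 in GC libraries. In WT cells it was at 10.97, 4.34 and 17.4 CPM in naive, 2166, 1265 and 8005 in activated and 3429, 5286 and 5170.5 in GC libraries. At each stage all p52ki libraries lay below all WT libraries. Of the 8 genes, 1 lay lower without overlap in naive cells (against 5.04% of all genes), 3 in activated cells (against 2.38%) and 2 in GC cells (against 16.3%), and Ighg1 was among them each time.

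The log2 differences of Ighg1 between genotypes were -2.79 (SE 0.736, adjusted p = 1) in naive, -4.41 (SE 0.684, adjusted p = 0.0541) in activated and -1.83 (SE 0.711, adjusted p = 0.0893) in GC cells, none of which passed. In activated cells other settings moved the value across the threshold: DESeq2 gave an adjusted p of 6.77e-08, limma voom with quality weights 0.0101, and a fit with detected genes per library as a covariate 0.0437. Leaving out WT activated replicate 3 gave 0.0134, and leaving out any other activated library gave 0.117 to 0.816. In a fit of the naive libraries alone it was 0.0365. The summed level of 8 plasma cell markers was 2218, 3270 and 1832 CPM in p52ki activated libraries 2, 3 and 5. It was 4237, 2193 and 7983 in WT activated libraries 1, 3 and 4. Jchain, 1 of the 8, made up most of the sum in each library (1387 to 7005 CPM). WT libraries had the same order in Ighg1 and the sum. In p52ki the highest sum was in replicate 3 and the highest Ighg1 in replicate 2. WT replicate 3 and p52ki replicate 2 had close sums (2193 and 2218 CPM), with Ighg1 at 1265 and 323 CPM. All 8 markers were detected in both groups, and their part in the difference was not tested.

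Ighg1 rose in activated against naive cells in both genotypes, with a log2 change of 6.92 (SE 0.811, adjusted p = 0.00276) in p52ki and 8.55 (SE 0.831, adjusted p = 0.000202) in WT. It passed with the replicate block too, at 0.00832 in p52ki and 0.00154 in WT cells. In GC against activated cells Ighg1 rose in p52ki (log2 2.82, SE 0.672, adjusted p = 0.00831), while the WT change of 0.24 (SE 0.594, adjusted p = 0.844) did not pass. The difference of these changes, 2.58 (SE 0.891, adjusted p = 0.0940), did not pass either. The rise in p52ki was not called with limma voom with quality weights. Over the 6 groups p52ki GC libraries overlapped WT activated ones, and WT activated overlapped WT GC, while p52ki naive, WT naive and p52ki activated libraries stood apart in that rising order.

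Ighg3, the constant gene of IgG3, a subclass typical of responses that do not need T cells, was at 12.3, 12.2 and 8.73 CPM in p52ki naive libraries and 7.39, 9.95 and 5.91 in WT naive libraries. In activated libraries it was at 169, 171 and 77.2 in p52ki and 377, 224 and 1012 in WT. GC libraries had 177 and 289.8 in p52ki and 270.1, 554 and 437 in WT. The genotypes overlapped in naive and GC cells and stood apart in activated cells, where p52ki was lower. There the log2 difference of -2.04 (SE 0.503, adjusted p = 1) did not pass; limma voom with quality weights gave an adjusted p of 0.0329. Ighg3 rose in activated against naive cells by a log2 change of 3.67 (SE 0.546, adjusted p = 0.0144) in p52ki, lost with the replicate block (adjusted p = 0.110), and of 6.22 (SE 0.615, adjusted p = 0.000202) in WT cells. The difference of these changes was -2.55 (SE 0.718, adjusted p = 1).

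Ighg2b and Ighg2c, the constant genes of IgG2b and of IgG2c, the C57BL/6 form of IgG2a, varied widely among libraries of 1 group. Ighg2b was at 257, 1606 and 190.4 CPM in p52ki activated and 459, 533 and 1576 in WT activated libraries, and at 1421 and 697 in p52ki GC and 153, 1319 and 471 in WT GC libraries. In naive libraries it was at 11.3, 28.99 and 7.51 CPM in p52ki and 7.39, 5.36 and 5.78 in WT, without overlap but with a log2 difference of 1.37 (SE 0.909, adjusted p = 1). Of the 8 genes, Ighg2b and Ighm lay higher in p52ki naive cells without overlap, against 5.3% of all genes.

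Ighg2c was at 102, 1847 and 25.7 CPM in p52ki activated and 121, 98.1 and 294 in WT activated libraries. In naive libraries it was at 2.09, 37.2 and 0.609 CPM in p52ki and 0, 0.255 and 7.33 in WT, where the count of 0 allows up to 0.37 CPM. Replicate 3 of p52ki was thus the highest library for Ighg2c in both naive and activated cells, and for Ighg2b too. In GC libraries Ighg2c was at 647 and 59.0 CPM in p52ki and 26.1, 421 and 103 in WT. The log2 difference between genotypes was 1.93 (SE 1.596, adjusted p = 1) in activated cells and turned to -1.59 without p52ki activated replicate 3; in naive cells it was 2.42 (SE 1.801, adjusted p = 1) and turned to -0.94 without p52ki naive replicate 3. In GC cells the differences of Ighg2b and Ighg2c were 0.71 (SE 0.921, adjusted p = 0.627) and 0.91 (SE 1.71, adjusted p = 0.748).

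In activated against naive cells Ighg2b just missed the threshold in p52ki (log2 5.47, SE 1.02, adjusted p = 0.0537) and rose in WT (7.19, SE 1.11, adjusted p = 0.00841, and 0.0137 with the replicate block). Ighg2c had changes of similar size, 5.68 (SE 1.90, adjusted p = 0.620) in p52ki and 6.17 (SE 2.01, adjusted p = 0.379) in WT, that did not pass.

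Ighe, the constant gene of IgE, was near the limit of counting in naive cells, with 0, 2 and 0 counts in p52ki and 1, 0 and 0 counts in WT libraries. In activated libraries it was at 0.797, 0.452 and 0.374 CPM in p52ki, from 8, 4 and 3 counts, and at 30.9, 4.09 and 12.6 CPM in WT. All WT activated libraries lay above all p52ki activated libraries, with a log2 difference of -4.97 (SE 1.30, adjusted p = 1) that did not pass; limma voom with quality weights gave an adjusted p of 0.0426. Summed over libraries, Ighe was 7.42-fold higher in activated than in naive p52ki cells (95% counting interval 1.73 to 66.9; 15 against 2 counts) and 340.2-fold higher in WT cells (60.7 to 13479; 335 against 1 count). These exact intervals cover counting error only.

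In GC libraries Ighe was at 0 and 13.9 CPM in p52ki, where the 0 allows up to 0.738 CPM, and at 22.6, 133 and 75.5 CPM in WT, again without overlap. The log2 difference was -3.36 (SE 1.36, adjusted p = 0.101); DESeq2 gave an adjusted p of 0.0451, and leaving out p52ki GC replicate 5, which held all Ighe counts of that group, gave 0.00337 from the 1 library left, at a count of 0. The change in GC against activated p52ki cells passed narrowly (log2 3.80, SE 1.32, adjusted p = 0.0459) but rested on that same library, without which it turned to -5.15. It was also lost without any 1 of the p52ki activated libraries (adjusted p of 0.0944 to 0.123). In WT cells the change was 2.20 (SE 1.09, adjusted p = 0.217).

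Igha, the constant gene of IgA, the isotype of mucosal secretions, had a higher mean in p52ki than in WT cells at all 3 stages. In p52ki cells it was at 12.1, 20.3 and 23.4 CPM in naive, 528, 413 and 522 in activated and 510.4 and 232 in GC libraries. In WT cells it was at 16.02, 9.19 and 7.58 CPM in naive, 73.6, 99.7 and 451 in activated and 38.4, 34.5 and 36.0 in GC libraries. The 3 WT GC libraries lay within a narrow range, and both p52ki GC libraries lay above it. Igha was higher in p52ki than in WT GC cells (371 ± 197 CPM, SD, n = 2, against 36.3 ± 1.97, n = 3; log2 3.35, SE 0.604, adjusted p = 0.00261).

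The Igha call in GC cells was kept without each of the 5 GC libraries in turn (adjusted p of 0.000790 to 0.0138). Against the 1 WT GC library left without replicates 1 and 4 it was 3.46 (adjusted p = 0.0257, with the spread taken from the other groups). It was lost with limma voom with quality weights and in a fit of the GC libraries alone. Of the 8 genes, Igha, Ighd and Ighm lay higher in p52ki GC cells without overlap, against 8.84% of all genes. The summed level of 9 marginal zone and B-1 cell markers was 1682 and 981 CPM in p52ki GC libraries 2 and 5 and 294, 496 and 271 CPM in WT GC libraries 1, 3 and 4, with all 9 detected in both; its part in the result was not tested. In activated libraries, where Igha was also higher on average in p52ki, the same sum was 2419 to 2546 CPM in p52ki and 2399 to 3083 CPM in WT.

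In activated cells the log2 difference of Igha between genotypes was 1.14 (SE 0.530, adjusted p = 1), and WT activated replicate 4, at 451 CPM, lay among the p52ki libraries; without it the difference was 2.44 (adjusted p = 0.128). Igha rose in activated against naive cells in p52ki (log2 4.72, SE 0.615, adjusted p = 0.00693) and WT (4.33, SE 0.608, adjusted p = 0.00425), in neither with the replicate block (adjusted p = 0.0971 and 0.0688). Between activated and GC cells the change of Igha was -0.34 in p52ki (SE 0.591, adjusted p = 0.709), and in WT it fell (log2 -2.55, SE 0.558, adjusted p = 0.00677). The difference of these changes, 2.21 (SE 0.787), had an adjusted p of 0.102. With 1 library left out the WT change ranged from -2.91 to -1.25, and in a fit of the WT activated and GC libraries alone it was not called.

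**Figure D3:**
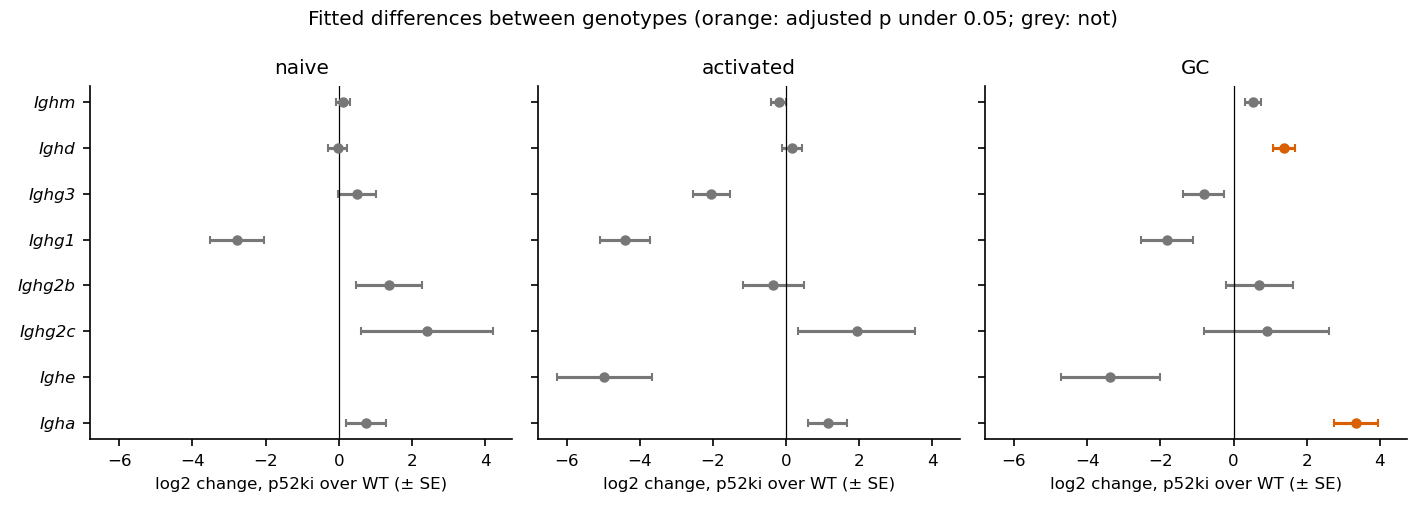
Fitted log2 change of each heavy chain constant gene, p52ki over WT, with its SE, in naive, activated and GC cells; orange marks an adjusted p under 0.05 and grey the rest, and Ighe is not drawn in naive cells, where both groups were at or under 3 counts. Only Ighd (1.37) and Igha (3.35) in GC cells passed, and Ighg1 lay below 0 at all 3 stages (-2.79, -4.41 and -1.83).

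The 8 genes together made up 1.19% to 1.20% of all counts in p52ki naive and 1.09% to 1.17% in WT naive libraries, 1.62% to 2.16% in p52ki activated and 1.83% to 3.33% in WT activated, and 1.02% to 1.12% in p52ki GC and 0.820% to 1.41% in WT GC libraries. Within that total, the share of the 6 genes downstream of Ighd was 0.326%, 0.835% and 0.357% in p52ki naive and 0.357%, 0.267% and 0.383% in WT naive libraries. In activated libraries it was 7.39%, 19.4% and 5.67% in p52ki and 17.1%, 12.1% and 34.1% in WT. The genotypes overlapped at both stages. In GC libraries it was 37.9% and 23.4% in p52ki and 48.0%, 54.9% and 56.3% in WT, without overlap. These shares differed by -22.4 percentage points in GC cells (30.6% ± 10.2, SD, n = 2, against 53.1% ± 4.44, n = 3; exact two-sided permutation p = 0.2). The summed naive follicular markers were at 1486 and 1494 CPM in p52ki GC replicates 2 and 5. They were at 602, 735 and 701 CPM in WT GC replicates 1, 3 and 4. In the same order, GC markers were at 921 and 1635 CPM in p52ki and 2380, 1672 and 2049 CPM in WT. The part of either marker list in the share was not tested.

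Among the 77 share comparisons computed, no permutation p could fall below 0.1 with 3 libraries against 3, or 0.2 with 2 against 3, and none passed after adjustment (smallest adjusted p = 0.214). The part that Ighg1 took of the downstream counts stood apart between genotypes at all 3 stages. It held 2.99%, 1.22% and 5.49% of them in p52ki naive and 26.2%, 14.9% and 39.5% in WT naive libraries. In activated libraries it held 23.4%, 3.67% and 11.3% in p52ki and 67.1%, 56.9% and 70.5% in WT. Of GC downstream counts it held 35.2% and 46.0% in p52ki and 87.1%, 68.2% and 82.2% in WT. No p52ki library reached a WT library of its stage (exact permutation p of 0.1, 0.1 and 0.2, each the smallest its design allows).

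The share of Igha in the downstream counts overlapped in naive libraries, at 31.04%, 20.3% and 54.9% in p52ki and 38.2%, 31.6% and 17.3% in WT. In activated libraries it was 38.3%, 9.85% and 56.8% in p52ki and 2.28%, 4.48% and 3.98% in WT (exact permutation p = 0.1). In GC libraries it was 11.997% and 9.71% in p52ki and 0.975%, 0.445% and 0.573% in WT (p = 0.2, exact). The downstream counts of p52ki activated replicate 3 stood apart from the other p52ki activated libraries in the share of Ighg2c, which was the largest of its 6 genes. The 6 genes of 1 library share a denominator, so a lower share of 1 gene raises the summed share of the others.

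**Figure D4:**
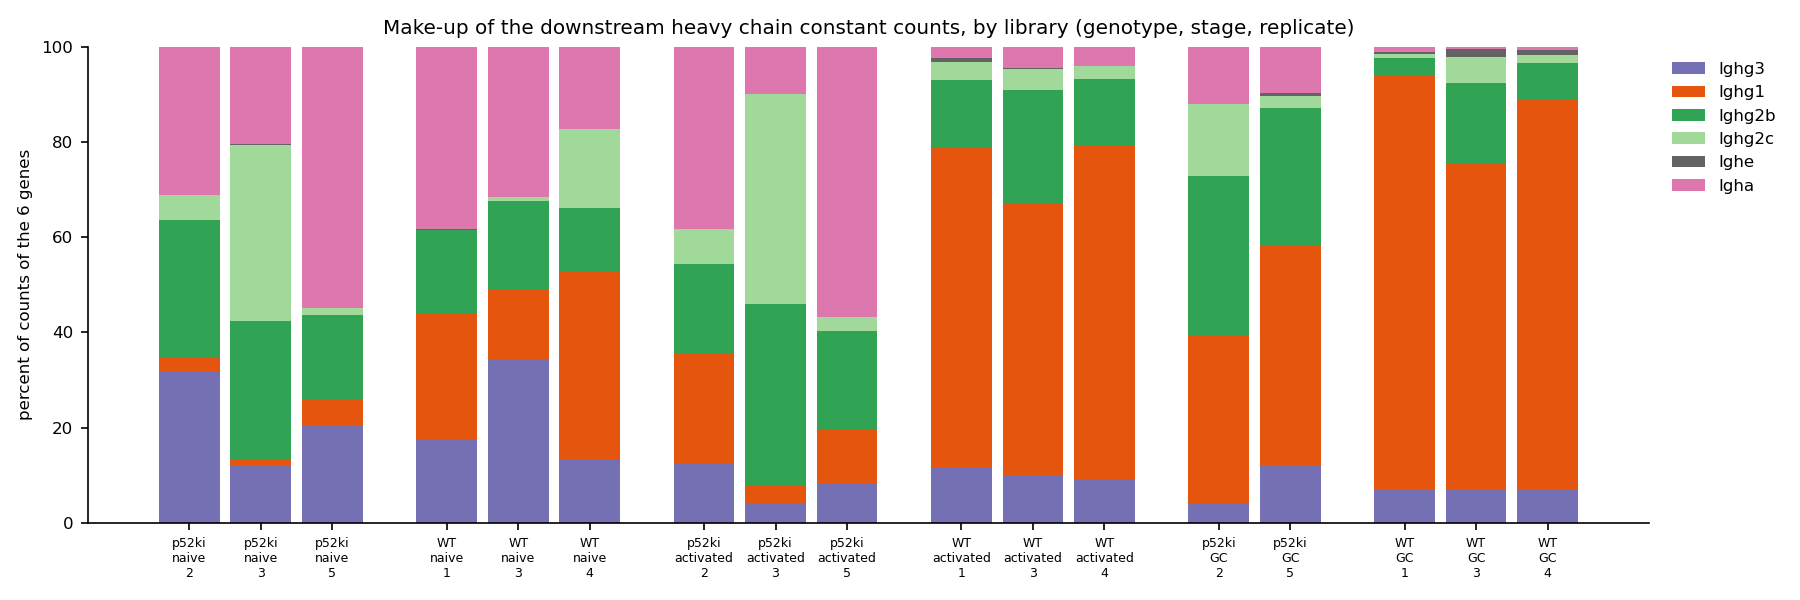
Make-up of the counts of the 6 downstream constant genes in each library, in percent, with p52ki libraries left of WT libraries at each stage. Ighg1 (orange) held 1.22% to 46.0% in p52ki libraries and 14.9% to 87.1% in WT libraries. The share of Igha (pink) was 9.71% to 56.8% in p52ki libraries and 17.3% to 38.2% in WT naive libraries. In WT activated and GC libraries it was 0.445% to 4.48%.

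**Figure D5:**
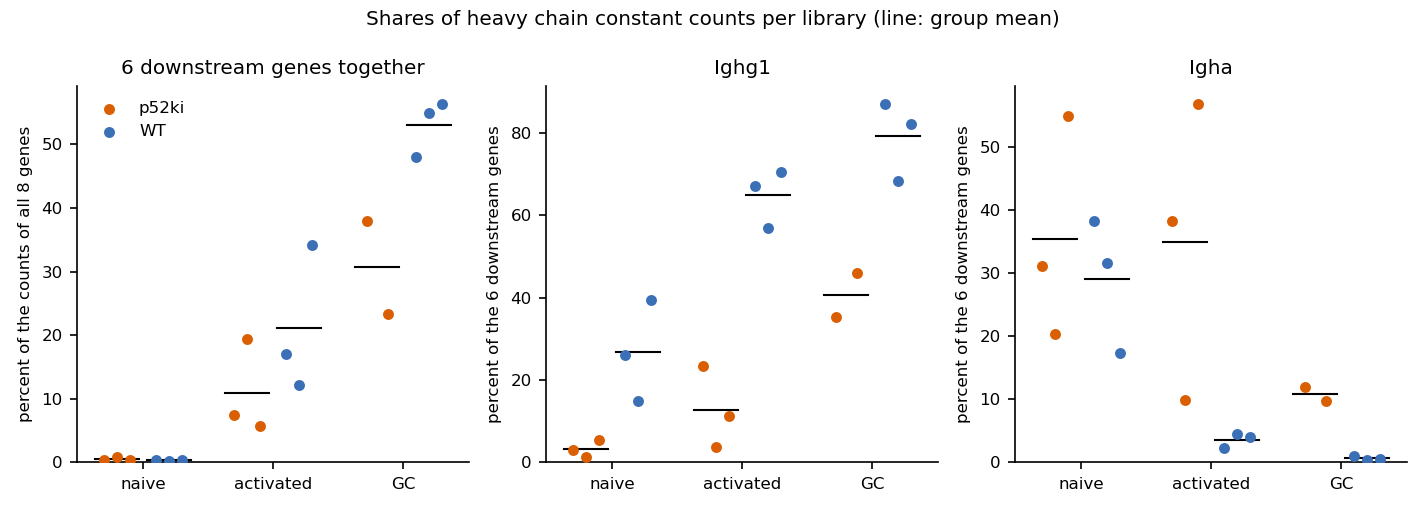
Share of the 6 downstream genes in the counts of all 8 genes, and shares of Ighg1 and Igha in the downstream counts, in percent, for every library with p52ki (orange) left of WT (blue) and a line at the group mean. The downstream share was higher at each later stage in both genotypes and reached 23.4% and 37.9% in p52ki GC and 48.0% to 56.3% in WT GC libraries.

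Of 28 tested genes of the class switch DNA machinery, none was called between genotypes in naive or activated cells. In GC cells 5 of the 28 genes were lower in p52ki, against 12.2% of all genes, and none higher, against 3.75%, with a list median of -0.64 against -0.32 over all genes. They included Hmces, which protects abasic sites (170 and 410 CPM in p52ki against 880, 779 and 916 in WT; log2 -1.52, SE 0.418, adjusted p = 0.0251), and Mre11a and Rad50, subunits of a complex that senses DNA breaks (log2 -2.57 and -2.24, adjusted p = 0.0255 and 0.0415). The call of Hmces was lost without p52ki GC replicate 2 (-0.985, adjusted p = 0.145) or WT GC replicate 4 (-1.42, adjusted p = 0.0593), and its value was -2.40 without p52ki GC replicate 5. Mre11a and Rad50 lost theirs without p52ki GC replicate 2 (-1.86 and -1.75), WT GC replicate 1 (-2.17 and -1.75) or WT GC replicate 4 (-2.39 and -2.08), at adjusted p of 0.0571 to 0.179, and were at -4.24 and -3.06 without p52ki GC replicate 5. Without WT GC replicates 1 and 4 none of these 3 was called (-1.35 for Hmces, -0.69 for Mre11a and -0.015 for Rad50; adjusted p of 0.0855 to 1).

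Shld2, a subunit of the shieldin complex that protects DNA ends in class switching, had no count in either p52ki GC library and 14.6, 25.2 and 18.1 CPM in WT GC libraries, at least 65.8-fold lower with 3 counts taken over the p52ki group (adjusted p = 1.87e-05). In GC against activated cells 4 of the 28 genes rose and 3 fell in p52ki, against 6.34% and 19.3% of all genes, and 6 rose and none fell in WT, against 5.8% and 7.75%.

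Of 20 tested signals and factors known to steer the choice of isotype, none was called between genotypes in naive or activated cells, and 4 were higher (against 3.75% of all genes) and none lower (against 12.2%) in p52ki GC cells (median 0.31 against -0.32 over all genes). Runx3, a factor that acts with TGF-beta signals on the Igha germline promoter in mouse B cells, was at 51.4 and 46.3 CPM in p52ki GC and 9.05, 5.89 and 9.96 CPM in WT GC libraries (log2 2.56, SE 0.338, adjusted p = 0.000204). Also among the 4 were Id2, an inhibitor of E proteins (1.54, SE 0.421, adjusted p = 0.0238), and Irf4, a regulator of switching and plasma cell fate (0.97, SE 0.295, adjusted p = 0.0383). Without WT GC replicate 1 or p52ki GC replicate 5 the calls of Id2 (1.29 and 1.32, adjusted p = 0.0776 and 0.0621) and Irf4 (0.78 and 0.70, adjusted p = 0.110 and 0.137) were lost, as was that of Id2 without WT GC replicates 1 and 4 (1.46, adjusted p = 0.0773). In activated cells Runx3 was at 48.1, 38.5 and 63.6 CPM in p52ki and 23.8, 38.4 and 37.3 CPM in WT (log2 0.52, SE 0.299, adjusted p = 1).

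Of 13 tested genes of heavy chain RNA processing and secretion, Jchain, the small chain of polymeric IgM and IgA, rose in activated against naive cells in both genotypes (log2 6.81, SE 0.699, adjusted p = 0.00102 in p52ki and 8.05, SE 0.738, adjusted p = 0.000202 in WT). It was at 1683, 2668 and 1387 CPM in p52ki activated and 3679, 1647 and 7005 in WT activated libraries, and at 2473 and 2139 in p52ki GC and 2289.7, 5252 and 4025 in WT GC libraries. The genotypes overlapped at both stages. In GC cells 3 of the 13 genes were lower in p52ki, against 12.2% of all genes, and none higher, against 3.75%. Cstf3 and Cstf2 belong to the cleavage stimulation factor, which helps to choose between the membrane and secreted ends of the heavy chain RNA, and had log2 differences of -1.70 (SE 0.245, adjusted p = 0.000422) and -1.64 (SE 0.527, adjusted p = 0.0465). With 1 GC library left out, the Cstf2 call was kept only without p52ki GC replicate 5, at -3.65. Omitting p52ki GC replicate 2 (-0.85) or WT GC replicate 1 (-1.73), 3 (-1.42) or 4 (-1.65) ended it, at adjusted p of 0.0636 to 0.0986, and so did omitting WT GC replicates 1 and 4 together (-1.83, adjusted p = 0.0585). Prdm1, a regulator of plasma cell fate, had no count in p52ki GC and 4.72, 17.9 and 6.84 CPM in WT GC libraries, at least 30.4-fold lower with 3 counts over the group (adjusted p = 0.00751).

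Of 10 partners of the heavy chain in the B cell receptor and light chain constant genes, 3 were higher (against 3.75% of all genes) and none lower (against 12.2%) in p52ki GC cells. These were Cr2, a complement receptor also on the marginal zone marker list (log2 1.44, SE 0.320, adjusted p = 0.00975), the lambda constant gene Iglc2 (1.17, SE 0.344, adjusted p = 0.0328) and Cd79a, which carries the receptor signal (0.84, SE 0.258, adjusted p = 0.0396). None of the 3 was called without WT GC replicates 1 and 4 (1.29, 0.70 and 0.57, adjusted p of 0.0635 to 0.269). The Iglc2 call was also lost without p52ki GC replicate 2 (1.03) or WT GC replicate 1 (0.90) or 4 (1.18), at adjusted p of 0.0722 to 0.116. That of Cd79a was lost without any 1 GC library other than WT replicate 3 (0.68 to 0.96, adjusted p of 0.0585 to 0.130). Igkc, the kappa constant gene, was at 17110.4 and 15044 CPM in p52ki GC and 3362, 14659 and 5739 CPM in WT GC libraries, without overlap, and its difference of 1.04 (SE 0.481, adjusted p = 0.146) did not pass. In activated cells the smallest p of the list belonged to the lambda constant gene Iglc1, at 2439.7, 2920.1 and 2063 CPM in p52ki and 8585, 3337 and 12606 CPM in WT (log2 -1.83, SE 0.475, adjusted p = 1).

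Over the 17 libraries, the genes whose levels followed each member most closely were compared by Pearson's r of log2(CPM + 1) among 11772 genes; these values reflect the 6 groups that all genes share and carry no test. Among the 3 closest to Ighd were Cd55 (0.983) and Gimap6 (0.979), and Ighm was followed most closely by Ctsb (0.942). For Ighg3 the first was Jchain (0.973), for Ighg1 Edem1 (0.961), for Ighg2b Derl3 (0.965) and for Ighe Lrr1 (0.923). Igha and Ighg2c had lower best values, with Cfp (0.854) and C130026I21Rik (0.863).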

How the data were processed

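B cells sorted from mouse spleen were profiled by RNA sequencing with a SMART-Seq protocol from very small amounts of RNA, as read pairs, per the labels' protocols. No molecular identifiers are named there, so copies of 1 molecule can be counted repeatedly, and intervals and zero limits (3 counts per library, or over a group where stated) cover counting error only. The authors deposited raw counts per gene, per the submitters' processing notes, which name GRCm38 and the tools HISAT2 2.1.0, SAMtools 1.8, Subread 1.6.2 and featureCounts. For the strand setting, the handling of multiply matching reads and the annotation release, a value is not given in the sources used here. Gene identifiers matched GENCODE mouse release M21, which gave positions and exon lengths.

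CPM are counts per 1e6 of a library's total. Tests used edgeR 4.0.16 in R 4.3.3 (filterByExpr, TMM, glmQLFit with robust estimation, glmQLFTest) with 1 coefficient per group over all 17 libraries. An adjusted p is from this test with Benjamini-Hochberg adjustment over the 15352 genes of a contrast, unless another tool is named. Shares were tested by exact two-sided permutation over libraries. On simulated counts for activated p52ki against WT cells (15352 genes), 45 of 100 genes changed 4-fold and 1 of 100 changed 2-fold were called. Alternatives were RLE scaling, no filter, DESeq2 1.42.0, limma 3.58.1 voom with quality weights, the compared groups alone, library totals without immunoglobulin genes, a covariate for detected genes, a replicate block and leaving out each library; shares were also taken with other denominators, per exon length and as log odds. Leaving out WT GC replicates 1 and 4, and shares within the downstream genes, were added after seeing the data.

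Replicates are numbered 2, 3 and 5 in p52ki (2 and 5 in GC cells) and 1, 3 and 4 in WT. Correlations of the deviations of same-numbered naive and activated libraries from their group means were 0.138, 0.359 and 0.127 in p52ki and 0.231, 0.169 and 0.108 in WT over all genes tested. These numbers were used as pairs in the replicate block only, while the main test and the share tests left the pairing out. Library numbers run in separate ranges for p52ki and WT, so a batch that follows them cannot be told apart from genotype. No label says that replicates came from separate animals, so p-values measure the spread between these libraries. The members, lists and named genes were chosen with earlier results of these data known. All 8 members are named. From 4 further lists up to 4 called genes with the smallest p were named per contrast, or the 2 with the smallest p where none was called, of which those that bear on the members are printed, and Jchain, Zfp318 and Igkc were followed throughout. Some genes that these rules pick are not reported here. For likeness the 3 genes with the highest r were taken per member, and the first is printed for most.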

Additional observations from a re-analysis of the deposited data

Results flagged for a closer look

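The change in GC against activated cells was tested for a difference between genotypes, and none of the 8 constant genes passed. Of the 71 tested genes in the related lists 4 did (5.63%), by the edgeR test adjusted over all genes, a share near the 5.95% of all genes. Runx3 had a difference of 2.04 on the log2 scale (SE 0.449, adjusted p = 0.0172). In p52ki cells it was at 51.4 and 46.3 CPM in GC and 48.1, 38.5 and 63.6 CPM in activated libraries, and in WT cells at 9.05, 5.89 and 9.96 CPM in GC and 23.8, 38.4 and 37.3 CPM in activated libraries. Cstf3 had a difference of -1.39 (SE 0.313, adjusted p = 0.0194), with a lower level in GC cells of p52ki (39.8 and 34.1 CPM, against 77.7, 55.0 and 61.0 CPM in activated p52ki libraries) and a higher one in GC cells of WT (122, 143 and 102 CPM, against 67.6, 96.7 and 66.1 CPM in activated WT libraries).

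Shld2 and Prdm1 had fitted differences of -10.54 (adjusted p = 5.16e-05) and -9.03 (adjusted p = 0.0289), values that depend on the prior count because neither gene had a count in the p52ki GC libraries. Against activated p52ki cells, with 3 counts taken over the GC group, Shld2 was at least 98.6-fold and Prdm1 at least 34.9-fold lower. The p52ki GC libraries had 11390 and 13044 detected genes, fewer than the 16745 or more in activated libraries. WT GC replicate 3 had 11232, with Shld2 at 25.2 CPM and Prdm1 at 17.9 CPM. The part of the number of detected genes in these zeros was not tested.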

How the results depend on the processing

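The number of the 8 genes called kept within 1.5 times its value under RLE scaling and without immunoglobulin genes in the library totals in all 9 contrasts. For activated p52ki against WT cells it was 1 with DESeq2, 3 with limma voom and 1 with a covariate for detected genes, in place of 0. Over all 15352 genes these settings called 9, 37 and 5, in place of 2. For naive cells it was 1 in a fit of these groups alone, in place of 0, with 13 of 13294 genes called. For GC cells it was 0 with limma voom and 0 in a fit of the GC libraries alone, in place of 2. Over all genes limma voom called 15 in place of 2450. The fit of the GC libraries alone called no gene of the 12620 tested, with 951 at an unadjusted p under 0.05. For GC against activated p52ki cells it was 1 with limma voom (Ighd) and 2 with the covariate, in place of 4. Over all genes it was 190 and 3170, in place of 3930. For the difference of that change between genotypes it was 1 with no filter and 2 with DESeq2, in place of 0. Over all genes it was 1185 of 28272 and 2243 of 15352, in place of 913. The main fit took 1 spread per gene over all groups. Chi-square per degree of freedom measured how far 2 libraries of a group differed beyond counting error. It was 7.89 to 31 in naive, 19.7 to 59.3 in activated and 23.7 to 116 in GC cells. The cause of these shifts was not tested. With the replicate block the count in activated against naive cells was 1 in place of 4 in p52ki and 3 in place of 6 in WT. Over all genes it was 2 in place of 18 and 17 in place of 49. Same-numbered GC and activated libraries did not deviate together (correlations from -0.287 to 0.0863). There the block left 3 of 4 calls in p52ki, where Ighe was lost, and the 3 in WT. Over all genes it called 2423 in place of 3930 in p52ki and 1272 in place of 2081 in WT.

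With 1 library left out at a time, the count of genes called ranged from 0 to 1 for activated p52ki against WT cells, 2 to 3 for GC cells, 0 to 4 for p52ki and 3 to 7 for WT activated against naive cells, and 0 to 2 for the difference in GC against activated change. Over all genes these fits called 0 to 2 for activated p52ki against WT cells. They called 1 to 12 for p52ki and 11 to 52 for WT activated against naive cells. With 1 library left out, the downstream share in p52ki minus WT GC cells ranged from -29.7 to -15.2 percentage points. The share of Igha in the downstream counts ranged from 9.05 to 11.3. That Igha difference was 9.15 per exon length. Without WT GC replicates 1 and 4 the Ighg1 share of downstream counts differed by -27.6 points between genotypes in GC cells, and by 3.39 points between WT GC and activated cells.

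Direction turned in small or widely scattered values, none of them called except Ighe. With 1 library left out, p52ki minus WT log2 differences ranged in naive cells from -0.10 to 0.01 (0.0095) for Ighd, -0.94 to 6.58 for Ighg2c, -0.19 to 0.12 for Igkc, -0.69 (-0.685) to 0.52 for Jchain and -0.18 to 0.05 (0.0525) for Zfp318. In activated cells they ranged from -0.03 (-0.0298) to 0.33 for Ighd, -2.09 to 0.46 for Ighg2b, -1.59 to 2.58 for Ighg2c and -0.24 to 0.33 for Zfp318, and in GC cells from -1.54 to 2.49 for Ighg2c. In GC against activated p52ki cells the ranges were -3.42 to 2.67 for Ighg2c, -5.15 to 4.76 for Ighe, -0.93 to 0.06 (0.0613) for Igha and -0.16 to 0.41 for Igkc. In WT cells they were -0.19 to 1.39 for Ighg1, -0.79 to 0.44 for Ighg3, -1.45 to 0.38 for Ighg2b, -1.40 to 0.71 for Ighg2c and -0.54 to 0.47 for Jchain. The p52ki minus WT difference of the activated against naive change ranged from -4.66 to 2.87 for Ighg2c and -0.02 to 1.69 for Igha, and that of the GC against activated change from -3.47 to 2.51 for Ighg2c and -7.35 to 2.56 for Ighe.

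With limma voom, Ighd turned to 0.0016 in naive and -0.02 (-0.021) in activated p52ki against WT cells and to -0.02 (-0.0226) for the difference of that stage change, Jchain to -0.25 in naive and Ighg2c to -0.92 in activated cells. Ighg2c turned to 0.10 and Igkc to 0.16 in p52ki GC against activated cells, Ighg1 to -0.25 and Ighg2c to -1.89 in WT, and Ighg2c to 1.99 for the difference. With the covariate, Zfp318 turned to -0.12 in activated and Ighg2c to -0.06 (-0.055) in GC p52ki against WT cells, Ighg2b to -0.98 and Jchain to -0.26 in p52ki GC against activated cells, and Ighg2c to -1.21 in WT. With the replicate block, GC against activated changes turned to 2.08 for Ighg2c and 0.22 for Igkc in p52ki, -0.36 for Ighg2c and 0.08 (0.079) for Jchain in WT and 2.45 for the Ighg2c difference. Without WT GC replicates 1 and 4, Ighg2b turned to -0.29 and Ighg2c to -0.26 in p52ki against WT GC cells, and Ighg2b to 0.56 and Jchain to 0.26 in WT GC against activated cells.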
